A study of Mus musculus with 48 samples.

Results

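The neuronal H3K4me3 peak lists of Setd1b cKO and control mice were compared, 8 of the 48 libraries of the series, taken as the samples labelled neuron H3K4me3 cKO (n = 4) and neuron H3K4me3 Control (n = 4). The source was the hippocampal CA region of C57BL/6J mice aged 4 to 6 months. Neuronal nuclei were fixed, sorted by flow cytometry and precipitated with an antibody to H3K4me3. Control animals carry no further genotype in the labels, and the labels name neither the Cre driver nor the deleted exons. A neuronal sort also holds nuclei of interneurons. Nothing in the labels says how many animals stand behind a library, so p-values measure the spread between these libraries. Neuron RNA (3 libraries of each genotype) and peak lists of H3K4me1, H3K27ac and H3K9ac from sorted neuronal nuclei of the same series served as further readouts.

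Trimethylation of lysine 4 on histone H3 marks the starts of active genes, where it usually forms a narrow block over the first nucleosomes on both sides of the start. At some genes the mark spreads over several kilobases into the gene body, and such broad domains are known for genes that define a cell type and for genes of synaptic function in neurons. SETD1B is a catalytic subunit of one of the COMPASS complexes, which methylate H3K4, and KDM5 and KDM1A proteins remove methyl groups from it.

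The targeted gene gave no check of the genotype labels. Setd1b stood at 65.5, 50.2 and 47.8 CPM (read counts scaled to the library total) in the 3 control neuron RNA libraries and at 60.2, 62.0 and 71.6 CPM in the 3 cKO libraries, a log2 difference of 0.25 (edgeR quasi-likelihood test, adjusted p = 0.361). These are whole-gene counts, in which reads outside the deleted part still count. The genotypes are therefore called by their labels throughout.

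H3K4me3 libraries held 24.4 to 27.8 M tags, and a single input of 28.8 M tags (control) or 31.3 M tags (cKO) served all libraries of a genotype, so genotype and input library cannot be told apart. Peaks were called by the authors per library, and all values below are for chromosomes 1 to 19, with coordinates on GRCm38. As a check of the sort, the tabled starts of the neuronal genes Syt1, Map2, Slc17a7 and Neurod6 lay in regions with a peak in 8 of 8 libraries, and that of Rbfox3 in 1 of 8. No library had a peak region at the start of Gfap, Aldh1l1 or Gja1 (astrocytes), Mog, Mag or Mobp (oligodendrocytes) or Cx3cr1 and P2ry12 (microglia). Among the glial and vascular genes with a tabled start, Slc1a3, Cldn5 and Flt1 had a peak in 8 of 8 libraries, and Tek had none.

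The starts of 5 genes whose H3K4me3 regions frame the results are shown here. Each line gives the 250 bases before the gene start, 5′ to 3′ on the gene's strand, from RefSeq (GRCm38.p6), with every CG dinucleotide in capitals. The first 4 genes lay in regions that were shorter in cKO, and Slc32a1, a marker of inhibitory neurons, lay in a region that was not called.
Gria2 (chr3:80802836-80803085, minus strand): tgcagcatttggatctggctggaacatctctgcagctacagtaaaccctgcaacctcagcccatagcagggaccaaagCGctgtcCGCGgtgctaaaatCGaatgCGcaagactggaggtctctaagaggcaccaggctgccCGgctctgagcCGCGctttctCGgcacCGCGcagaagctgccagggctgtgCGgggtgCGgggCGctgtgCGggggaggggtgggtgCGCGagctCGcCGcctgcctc
Npas4 (chr19:4989972-4990221, minus strand): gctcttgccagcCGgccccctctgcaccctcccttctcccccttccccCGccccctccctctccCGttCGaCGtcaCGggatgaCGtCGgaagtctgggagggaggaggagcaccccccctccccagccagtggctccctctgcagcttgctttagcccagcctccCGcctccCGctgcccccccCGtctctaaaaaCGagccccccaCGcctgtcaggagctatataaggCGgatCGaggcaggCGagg
Neurod6 (chr6:55681264-55681513, minus strand): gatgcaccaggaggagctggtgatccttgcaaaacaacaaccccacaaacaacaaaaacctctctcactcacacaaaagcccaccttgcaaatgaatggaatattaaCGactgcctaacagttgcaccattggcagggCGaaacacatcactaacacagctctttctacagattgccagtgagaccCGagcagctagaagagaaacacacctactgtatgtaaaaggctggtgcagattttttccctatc
Lrrc10b (chr19:10457448-10457697, minus strand): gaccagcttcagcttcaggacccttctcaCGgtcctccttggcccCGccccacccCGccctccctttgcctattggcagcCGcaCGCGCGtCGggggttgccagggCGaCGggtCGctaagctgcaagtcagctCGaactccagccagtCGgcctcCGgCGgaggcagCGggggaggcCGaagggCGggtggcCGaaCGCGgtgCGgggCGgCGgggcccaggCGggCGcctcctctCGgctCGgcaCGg
Slc32a1 (chr2:158610508-158610757, plus strand): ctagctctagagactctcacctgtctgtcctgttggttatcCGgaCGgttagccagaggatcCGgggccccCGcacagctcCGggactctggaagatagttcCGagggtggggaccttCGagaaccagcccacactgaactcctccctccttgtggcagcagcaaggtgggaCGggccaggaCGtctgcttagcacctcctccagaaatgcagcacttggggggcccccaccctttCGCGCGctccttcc

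The shortened regions of these examples held starts both rich and poor in CG. The 250 bases held 29 CG dinucleotides at Lrrc10b, 19 at Gria2, 16 at Npas4 and 3 at Neurod6, against 12 at Slc32a1. CG reads the same on both strands, and 92.1% of the 32851 tabled starts had at least 1 in a window of this length. The median was 6 over all tabled starts and 16 over the 12805 genes whose start lay in a tested H3K4me3 region.

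The first comparison asked whether H3K4me3 peaks differed in number and width between the genotypes. The libraries labelled cKO had about as many peaks as controls, but far fewer wide ones. Peaks of at least 4 kb numbered 1240, 1354, 1401 and 1403 in the control libraries and 233, 471, 434 and 437 in the cKO libraries. Every cKO library lay below every control library, with means of 1350 ± 76.4 and 394 ± 108 (SD, n = 4 each), a difference of −70.8%. Peaks of 1 kb to under 2 kb were more numerous in every cKO library than in every control library, with 9014 ± 328 against 7675 ± 169 (SD, n = 4 each). The exact permutation p was 0.0286 for both of these classes, the smallest that 4 libraries against 4 allow, and 0.0714 after Benjamini-Hochberg adjustment over the 5 classes. Peaks of 2 kb to under 4 kb numbered 5608 ± 737 in cKO and 6161 ± 207 in control libraries (SD, n = 4 each, exact p = 0.114, adjusted p = 0.190), and their ranges overlapped.

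**Figure D1:**
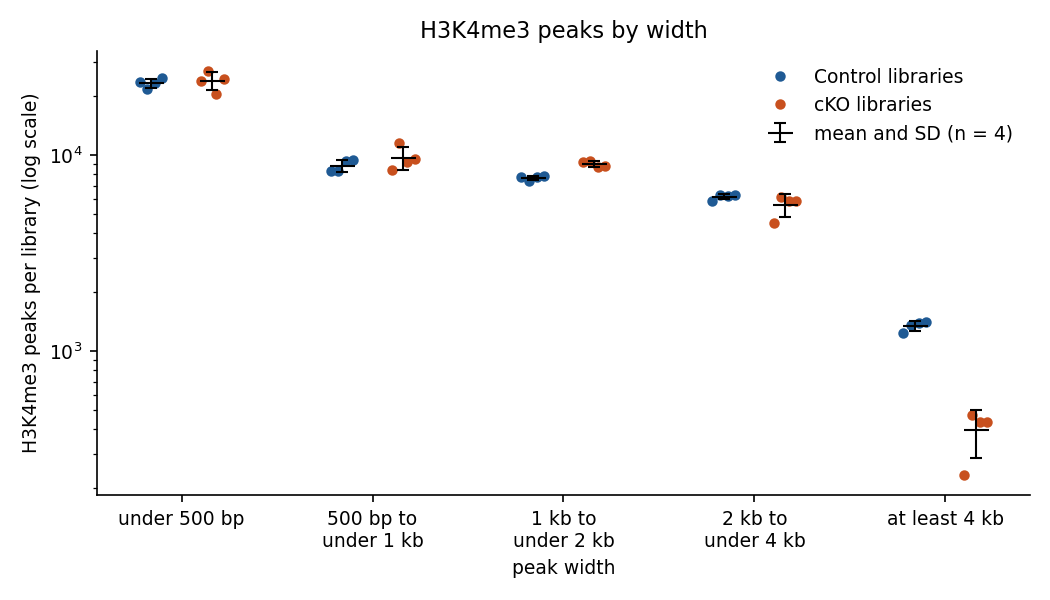
Number of H3K4me3 peaks per library (log scale) in 5 classes of peak width, with 1 point per library and the mean and SD of 4 libraries. The cKO libraries lie below all controls for peaks of at least 4 kb (233 to 471 against 1240 to 1403) and above all controls for peaks of 1 kb to under 2 kb.

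The widest peaks stood apart in the same way. The widest peak of a library measured 17980, 23469, 24219 and 24114 bp in controls and 11412, 9300, 11940 and 11957 bp in cKO. The 99th percentile of peak width was 5430 ± 82.0 bp in controls and 3818 ± 209 bp in cKO (SD, n = 4 each), without overlap. The mean width was 986, 1046, 1016 and 999 bp in controls and 829, 877, 952 and 891 bp in cKO, also without overlap. Both had an exact permutation p of 0.0286 and an adjusted p of 0.0571 over the family of 4 measures. The median width stood at 491 to 532 bp in controls and 473 to 566 bp in cKO, so the ranges overlapped in the middle of the distribution. Total covered length was 48.0 ± 1.59 Mb in controls and 43.2 ± 3.87 Mb in cKO (SD, n = 4 each, exact p = 0.0857, adjusted p = 0.114). With only peaks of a −log10 q of at least 5, covered length, mean width and 99th percentile width each passed at an adjusted p of 0.0381. The exact p of both widths was already the smallest possible, and their adjusted p changed because covered length reached it too.

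The sequencing lane named by the files split the libraries into replicates 1 to 3 and replicate 4, with both genotypes in each lane. Peaks of at least 4 kb differed by −71.5% within the lane of replicates 1 to 3 and by −68.9% between the 2 libraries of the other lane.

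The chromosomes were then compared, to see whether the narrower peaks came from a few of them. Mean peak width was lower in cKO on 19 of 19 chromosomes, and it fell with an adjusted p of 0.0302 on 18 of them (exact permutation tests, p = 0.0286 each, adjusted over 19). That p is the smallest possible, and the chromosomes share the same libraries, so they are not independent results. Over all 19 chromosomes together the adjusted p of mean width was 0.0571 (exact permutation test), as given above. On chromosome 15, with 994 ± 30.2 bp in controls and 895 ± 45.3 bp in cKO (SD, n = 4 each), 1 cKO library reached into the control range (exact p = 0.0571, adjusted p = 0.0571). The difference ran from −9.08% on chromosome 11 to −15.8% on chromosome 1. Chromosome 1 peaks averaged 1013 ± 31.6 bp in controls and 853 ± 49.9 bp in cKO (SD, n = 4 each). When every library was reduced to the same number of strongest peaks, the genotypes were fully separated on 11 chromosomes rather than 18.

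**Figure D2:**
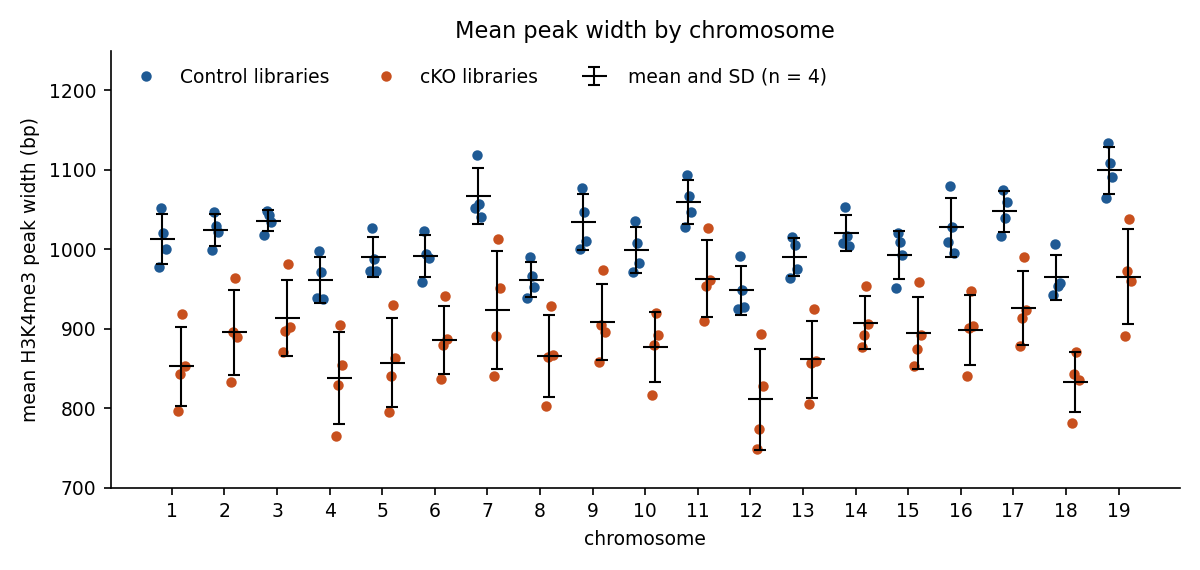
Mean H3K4me3 peak width in bp on each of 19 autosomes, with 1 point per library and the mean and SD of 4 libraries, on an axis that starts at 700 bp. The cKO mean is below the control mean on every chromosome, and the libraries overlap on chromosome 15 only.

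To compare the same places between libraries, the peaks of all 8 were merged into 72926 regions, of which 43584 had a peak in at least 3 libraries and were tested. A region's covered length is the number of its bases under peaks in a library. Its log2 (with 100 bp added) was compared by limma. Covered length differed in 4679 regions, 10.7% of those tested, at an adjusted p under 0.05. In cKO 4047 regions were shorter (9.29%) and 632 were longer (1.45%). Of the shorter regions 736 had a peak in all control libraries and no cKO library, and 269 of the longer ones had the reverse. Without cKO replicate 1 there were 1063 longer regions. Requiring a log2 difference of at least 0.5 in either direction left 2362 shorter and 547 longer regions.

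The direction of the calls depended on how wide the region was. Of 2077 regions at least 4 kb wide, 1329 were shorter (64.0%) and 0 were longer, also 0 at an unadjusted limma p under 0.05. Of 7640 regions of 2 kb to under 4 kb, 1500 were shorter (19.6%) and 4 longer. Among 9126 regions of 1 kb to under 2 kb the calls were 480 shorter (5.26%) and 60 longer. The 14950 regions of 500 bp to under 1 kb held 565 shorter (3.78%) and 328 longer ones (2.19%). Of 9791 regions under 500 bp, 173 were shorter and 240 longer, the one class with more longer than shorter calls. Regions with peaks in all libraries of 1 genotype and none of the other made up 151 of these shorter and 178 of these longer calls. At 500 bp to under 1 kb they made up 401 of the shorter and 88 of the longer calls. The median log2 difference ran from 0.27 in the narrowest class to −0.39 in the widest, against −0.01 over all tested regions.

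**Figure D3:**
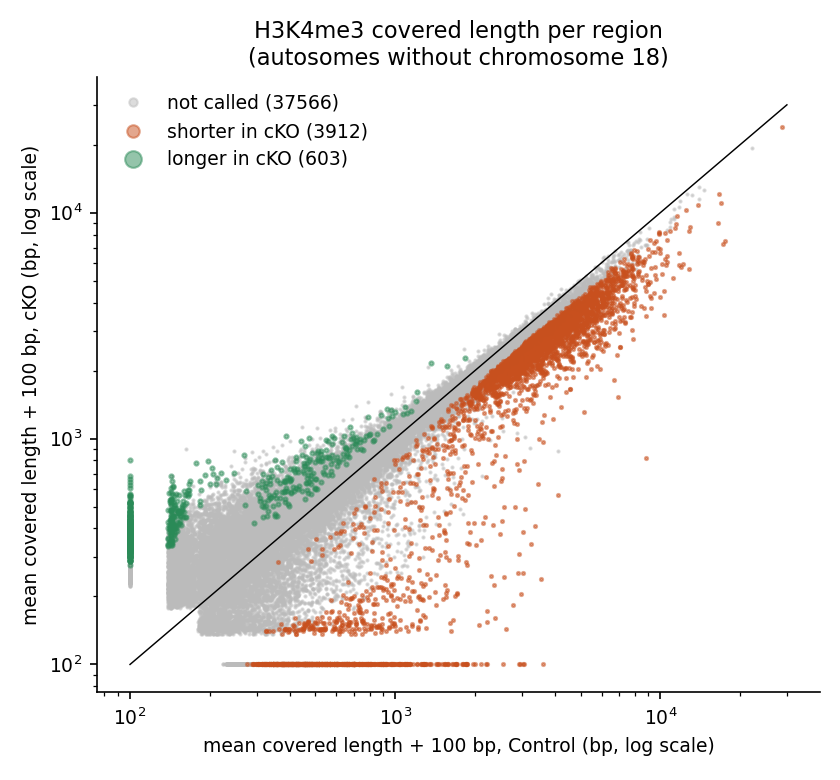
Mean H3K4me3 covered length of each tested region (plus 100 bp, log scales) in control and cKO libraries, each the mean of 4, with the line of equality. Regions shorter in cKO (orange) spread below the line over all lengths and include regions with no peak in any cKO library along the lower edge, and longer ones (green) are mostly short. Chromosome 18 is not drawn.

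Summed over regions, those at least 4 kb wide were covered over 10.8 ± 0.128 Mb in control libraries and 7.95 ± 0.444 Mb in cKO (SD, n = 4 each), a difference of −26.2%. In regions of 2 kb to under 4 kb the sums were 18.9 ± 0.275 Mb and 16.5 ± 0.733 Mb (SD, n = 4 each), or −12.6%. Both pairs of groups did not overlap (exact permutation p = 0.0286 each, adjusted p = 0.0714 over 5 classes). The narrower classes overlapped between genotypes, with −4.15% at 1 kb to under 2 kb, 8.10% at 500 bp to under 1 kb and 23.02% under 500 bp. The share of all covered length that lay in regions of at least 4 kb was 22.9 ± 0.375% in controls and 18.9 ± 0.507% in cKO (SD, n = 4 each), without overlap (exact p = 0.0286), a comparison added after the values were seen.

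Within the widest regions the mark was split into more peaks and spanned less length. In the 2075 regions at least 4 kb wide with a peak in all 8 libraries, controls had 1.94, 1.74, 1.71 and 1.72 peaks per region and cKO libraries 2.35, 2.14, 2.099 and 2.12. The span from the first to the last peak edge was 5317 ± 38.4 bp in controls and 4257 ± 164 bp in cKO (SD, n = 4 each). Peaks covered 97.6 ± 0.423% of that span in controls and 91.7 ± 1.196% in cKO (SD, n = 4 each). The number of peaks per region rose and the span and covered share fell in cKO, with no overlap in any of the 3 measures (exact permutation p = 0.0286, adjusted p = 0.0286 over 3). The rise in peaks per region did not pass when only peaks with a −log10 q of at least 5 were used (0.18 more per region, adjusted p = 0.0857) or the same number of strongest peaks (0.33 more, adjusted p = 0.0571).

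The edges of the regions were then placed relative to gene starts, to see on which side of the start the length differed. At 9164 regions with starts on 1 strand and a peak in all libraries, the mark reached 1622, 1642, 1656 and 1656 bp downstream of the outermost start in controls. In cKO libraries it reached 1311, 1433, 1398 and 1393 bp, each less than in any control. Means were 1644 ± 16.05 bp and 1384 ± 51.9 bp (SD, n = 4 each, exact permutation p = 0.0286, adjusted p = 0.0571 over 2). On the upstream side the reach was 686, 701, 706 and 708 bp in controls and 644, 716, 693 and 686 bp in cKO, with overlapping groups (exact p = 0.4, adjusted p = 0.4). The downstream share of the reach was 70.1 ± 0.0973% in controls and 66.9 ± 0.160% in cKO (SD, n = 4 each, exact p = 0.0286), again a measure added after the values were seen.

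By width class the downstream side differed more than the upstream side from 1 kb upward. In 1128 regions of at least 4 kb the downstream reach was 3983 ± 23.6 bp in controls and 3045 ± 119 bp in cKO (SD, n = 4 each), or −23.6%. On the upstream side the reach was 1307 ± 10.5 bp and 1189 ± 40.0 bp (SD, n = 4 each), or −9.04%, and the groups did not overlap on either side. In 4440 regions of 2 kb to under 4 kb the downstream reach differed by −15.7% without overlap, and the upstream reach by −1.52% with overlap. In 2889 regions of 1 kb to under 2 kb the downstream reach was 900 ± 12.6 bp in controls and 857 ± 31.7 bp in cKO (SD, n = 4 each), or −4.75%, and 1 cKO library overlapped the controls. Upstream these were 464 ± 9.35 bp and 475 ± 26.1 bp (SD, n = 4 each), or 2.38%, with 3 of 4 cKO libraries above all controls and 1 below.

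The position of peaks along the gene showed the same profile base by base. At the start itself 95.1% of these regions lay under a peak in controls and 94.8% in cKO, as means of 4 libraries. At 2000 bp into the gene the shares were 27.4% and 14.3%, and at 3000 bp 13.3% and 5.45%. At 2000 bp before the start they were 5.02% and 3.99%, and the groups did not overlap there either. By 6000 bp into the gene they had come to 4.54% and 2.87%.

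**Figure D4:**
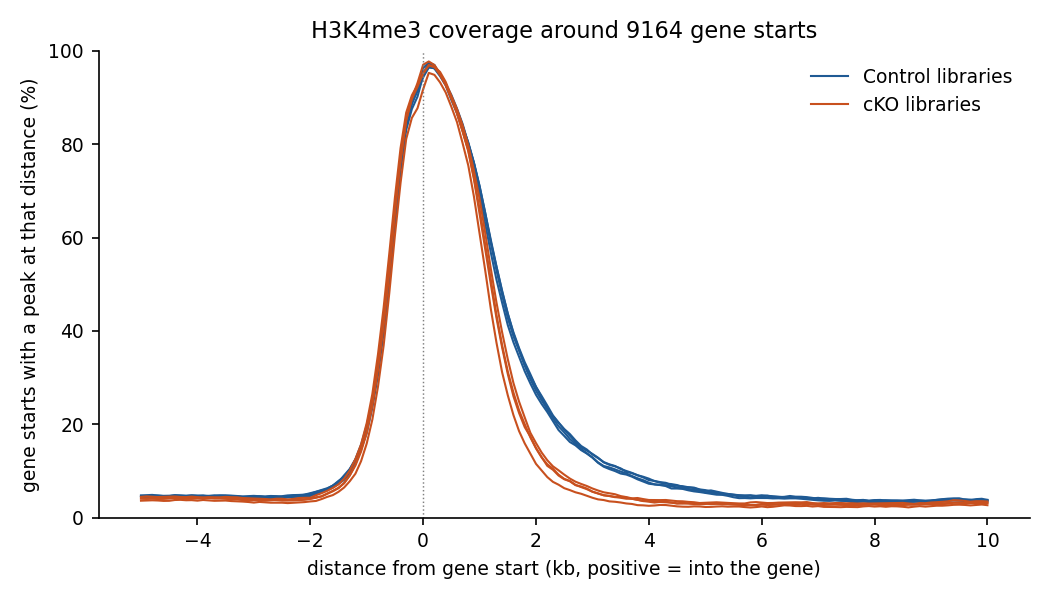
Percent of 9164 regions with a gene start that lie under an H3K4me3 peak at each distance from the start (kb, positive into the gene), with 1 line per library. The control and cKO means are 27.4% and 14.3% at 2000 bp into the gene and 5.02% and 3.99% at 2000 bp before the start, without overlap of libraries at either place.

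Shorter regions held a tabled gene start more often than the tested regions as a whole, but not within width classes. The tabled starts lack many genes, so regions without one can hold untabled starts. The shares below therefore do not fully separate gene starts from other places. On chromosomes with tabled starts, 2019 of 3912 shorter regions held a gene start (51.6%), against 27.02% of all tested regions and 20 of 603 longer ones (3.32%). Within the widest class the share called shorter was alike with a start (960 of 1512, 63.5%) and without (320 of 497, 64.4%). In the narrower classes it was lower with a start than without, with 17.6% and 25.9% at 2 kb to under 4 kb, 1.99% and 7.13% at 1 kb to under 2 kb, and 0.891% and 3.96% at 500 bp to under 1 kb. Of the shorter regions 97.4% overlapped a gene body or start, against 74.6% of all tested ones and 58.7% of the longer ones.

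Presence or absence of a peak was compared next. A peak was called in all 8 libraries in 27163 regions. In 736 regions all 4 control libraries and no cKO library had a peak, and in 269 regions it was the reverse. All of them are among the shorter and longer calls above, so these counts are not a separate result. Most control-only regions lay beside a region shared by all libraries: the median distance was 684.5 bp, and 625 of 736 (84.9%) were within 5000 bp. For cKO-only regions the median distance was 28953 bp, and 34 of 269 (12.6%) were within 5000 bp. Control-only regions covered a median of 417 bp with a median fold enrichment of 4.52, and 95.1% of them overlapped a gene. The cKO-only ones covered 274 bp with a fold enrichment of 4.16. Regions with a peak in every library had medians of 1148 bp and 19.2. Few of either kind held a tabled gene start, 12 and 5. When peaks within 1 kb were merged, 183 control-only regions were left, and with a −log10 q of at least 5 there were 440, so this count depended on the edges and strength of peaks. The cKO-only count was higher with 1 library left out, since fewer libraries then had to agree. It came to 632 without cKO replicate 1, 535 without cKO replicate 3, 439 without control replicate 4, 430 without cKO replicate 4 and 408 without control replicate 3.

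The largest control-only regions lay inside genes. They were picked for their peaks in controls and none in cKO, so no p-value is given for that difference. On chromosome 3 from 85680355 to 85684026, within Fam160a1, controls had 3458, 3474, 3524 and 3604 bp under peaks and no cKO library had a peak. H3K9ac covered 2288 bp of that region in controls and 865 bp in cKO, and H3K4me1 2650 and 3398 bp, as means over libraries. The H3K9ac groups did not overlap, but the H3K4me1 groups did (1753 to 3672 bp in controls and 2761 to 3672 bp in cKO). On chromosome 3 from 136677519 to 136680841, within Ppp3ca, the catalytic subunit of calcineurin, controls had 2750, 2738, 3155 and 3246 bp and cKO libraries 0. On chromosome 10 from 98925532 to 98929267, within Atp2b1, a plasma membrane calcium pump, controls had 2246, 2873, 3588 and 3015 bp and cKO libraries 0. H3K4me1, H3K27ac and H3K9ac peaks stood at these 3 regions in every library of either genotype.

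The cKO-only regions were shorter. The 3 with the most covered length had 1116, 896, 365 and 421 bp (chromosome 1 from 85287156 to 85288285, within Gm38510), 352, 798, 485 and 698 bp (chromosome 1 from 99813353 to 99814156, within Cntnap5b) and 560, 892, 499 and 310 bp (chromosome 8 from 84519867 to 84520910, within Cacna1a, a calcium channel gene). Among wider regions, one within Gnas (chromosome 2 from 174294234 to 174296427) rose from 919, 1259, 1268 and 1598 bp in controls to 2092, 2189, 1855 and 2124 bp in cKO (limma log2 difference 0.69, SE 0.15, adjusted p = 0.0303). That call was lost in 7 of 17 alternatives.

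The strongest calls of the widest class left part of the region marked. On chromosome 5 from 25055001 to 25060533, within Prkag2, a regulatory subunit of AMP-activated kinase, 5307, 5001, 4941 and 4979 bp were covered in controls and 1260, 1168, 1206 and 1187 bp in cKO (log2 difference −1.98, SE 0.05, adjusted p = 1.65e-06). H3K4me1 covered 5533 bp of this region in both genotypes, H3K27ac 5486 bp in controls and 5533 bp in cKO, and H3K9ac 4790 and 4123 bp, as means over libraries, and the H3K9ac groups overlapped. Within Auts2, on chromosome 5 from 131612802 to 131617477, the lengths were 4427, 4510, 4406 and 4440 bp in controls and 1587, 1604, 1633 and 1435 bp in cKO (log2 difference −1.45, SE 0.06, adjusted p = 9.59e-06). There H3K27ac covered 2308 bp in controls and 1322 bp in cKO, and H3K9ac 2434 and 1115 bp, both without overlap between genotypes.

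A pair of the widest regions is given side by side, and the difference between them was not tested. Epha4, which encodes an ephrin receptor, starts in a region of 18368 bp on chromosome 1 (77499161 to 77517528) that was covered over 16601, 17726, 17856 and 17240 bp in controls and 6477, 7511, 7803 and 7741 bp in cKO (log2 difference −1.23, SE 0.08, adjusted p = 7.79e-05). The widest region, 29096 bp on chromosome 13 (83712996 to 83742091) at C130071C03Rik, had 28573 ± 212 bp in controls and 23817 ± 1238 bp in cKO (SD, n = 4 each, log2 difference −0.26, adjusted p = 0.0282), a call lost in 9 of 17 alternatives. H3K4me1 covered more of these regions in cKO than in any control library. Its mean length went from 12497 to 26211 bp in the widest and from 13733 to 16342 bp at Epha4, values that were not tested.

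Genes of synaptic plasticity were described through the region that holds their start. This list was chosen with earlier results of these data known. Of 12 list members with a tabled start, 12 had a peak in all libraries, 6 lay in a region called shorter and 0 in a longer one (limma, with 7 and 0 at an unadjusted p under 0.05). Over all 12805 genes with a start in a tested region 18.2% were called shorter and 0.141% longer. The list's median log2 difference was −0.31 beside −0.10 over all these genes. Their regions were also wider, with a median control length of 5887 bp against 2199 bp over all these genes, and wide regions were called shorter more often. Of the 1905 genes with a start in a region of at least 4 kb, 62.2% were called shorter.

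Receptor subunits are given first. The region of Gria2, an AMPA receptor subunit, was covered over 11170, 10769, 11429 and 10962 bp in controls and 4690, 5067, 5425 and 4893 bp in cKO (limma log2 difference −1.13, SE 0.06, adjusted p = 4.66e-05). All cKO libraries lay far below all controls. The region of Grin1, the obligatory NMDA receptor subunit, had 4520, 4528, 4782 and 4698 bp in controls and 2054, 2258, 2695 and 2821 bp in cKO (−0.90, SE 0.11, adjusted p = 0.00172).

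Among regulators and signalling genes, the region of Npas4, an activity-induced transcription factor, had 6155, 6125, 6239 and 5664 bp in controls and 2679, 2836, 3074 and 2611 bp in cKO (log2 difference −1.09, SE 0.07, adjusted p = 0.000101). That of Nrgn, a calmodulin-binding postsynaptic protein, had 5521, 5540, 5607 and 5356 bp in controls and 3221, 3379, 3649 and 3906 bp in cKO (−0.63, SE 0.07, adjusted p = 0.00149). Gria2, Grin1, Npas4 and Nrgn kept their call in 17 of 17 alternatives. The regions of Homer1, a postsynaptic scaffold (−0.55, adjusted p = 0.0461), and Syt1, the calcium sensor of vesicle release (−0.24, adjusted p = 0.0295), each lost it in 8 of 17.

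Members that did not pass also had wide regions in part. The Bdnf region, of the neurotrophin gene, had 5734, 5749, 5708 and 5721 bp in controls and 5358, 5861, 5717 and 5695 bp in cKO (log2 difference −0.02, SE 0.05, adjusted p = 0.867), and the groups overlapped. The region of Dlg4, the scaffold PSD-95, had 7238 ± 239 bp and 5604 ± 715 bp (SD, n = 4 each, adjusted p = 0.0587). Fos (adjusted p = 0.253), Shank3 (0.407), Creb1 (0.936) and Ntrk2 (0.399) were not called. Arc, Egr1, Camk2a, Gria1, Grin2a, Grin2b, Nptx1 and Nptx2 had no tabled start.

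**Figure D5:**
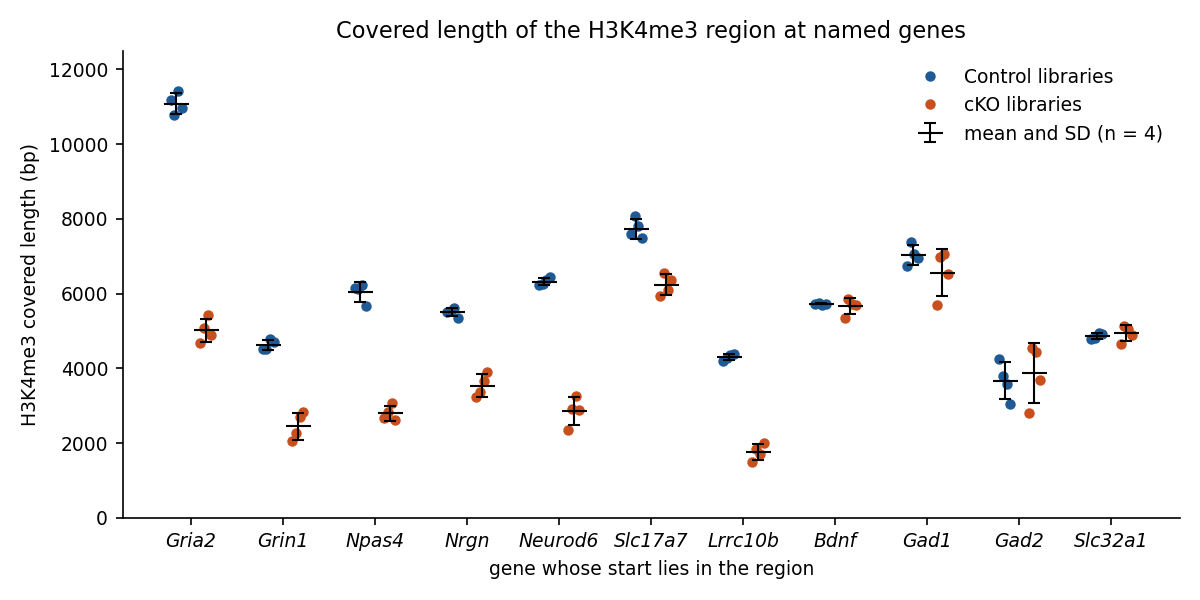
H3K4me3 covered length in bp of the region that holds the start of each named gene, with 1 point per library and the mean and SD of 4 libraries. Gria2, Grin1, Npas4, Nrgn, Neurod6, Slc17a7 and Lrrc10b are separated by genotype, and Bdnf, Gad1, Gad2 and Slc32a1 overlap.

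Markers of neurons in general and of excitatory neurons formed one list, and markers of interneurons another. Of the former with a testable start 4 of 4 were called shorter (median log2 difference −0.31), and of the interneuron markers 0 of 5 (median 0.02), with 0 of 5 also at an unadjusted limma p under 0.05, against 18.2% of all genes. Both lists were likewise chosen with earlier results of these data known. The difference between both lists was not tested, and Syt1 was already counted above. The median control length was 6980 bp in the first list and 3672 bp in the second, and wide regions were called shorter more often. Neurod6, a transcription factor of pyramidal neurons, had 6231, 6266, 6361 and 6434 bp in controls and 2346, 2918, 3272 and 2887 bp in cKO (log2 difference −1.13, SE 0.10, adjusted p = 0.000422). Slc17a7, the vesicular glutamate transporter, had 7583, 8066, 7798 and 7484 bp and 5932, 6564, 6097 and 6354 bp (−0.31, SE 0.06, adjusted p = 0.0158), and lost its call in 3 of 17 alternatives. Map2, a dendritic microtubule protein, had 3487 ± 91.7 bp and 2801 ± 252 bp (SD, n = 4 each, adjusted p = 0.0468) and lost it in 9 of 17.

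Slc32a1, the vesicular GABA transporter, had 4797, 4821, 4956 and 4928 bp in controls and 4656, 5142, 5054 and 4903 bp in cKO (log2 difference 0.02, SE 0.05, adjusted p = 0.882). Gad1, which makes GABA, had 6749, 7384, 7049 and 6947 bp and 5689, 6969, 7053 and 6532 bp (−0.10, SE 0.08, adjusted p = 0.519), and its ranges overlapped. Gad2 (adjusted p = 0.867), Pvalb (0.708) and Sst (0.405) were not called either. In sorted bulk nuclei, fewer nuclei of a type and a smaller extent of the mark per nucleus cannot be told apart. In neuron RNA, 1 of the 4 neuronal markers was lower, Neurod6 (log2 difference −2.24, edgeR adjusted p = 2.96e-05), and 0 were higher. Slc17a7 differed by −0.07 (adjusted p = 0.817) and Gad1 by 0.07 (adjusted p = 0.816).

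Of the H3K4 methylating and demethylating enzymes, 9 had a start in a tested region, of which 2 were called shorter and 0 longer (limma, with 4 and 0 at an unadjusted p under 0.05). That is 22.2%, near the 18.2% of all genes. Kdm5b and Kdm1a encode demethylases. The region of Kdm5b had 3004, 3055, 2966 and 2938 bp in controls and 2525, 2482, 2629 and 2534 bp in cKO (log2 difference −0.23, SE 0.05, adjusted p = 0.0280). The region of Kdm1a had 2305, 2537, 2304 and 2523 bp and 1934, 2142, 1932 and 1962 bp (−0.27, SE 0.07, adjusted p = 0.0435). These calls were lost in 7 and 11 of 17 alternatives. The methyltransferase genes Setd1a, Kmt2a, Kmt2c and Kmt2d had an adjusted p of 0.454, 0.556, 0.0681 and 0.131, and the core subunits Wdr5, Rbbp5 and Dpy30 0.989, 0.804 and 0.366.

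RNA of the linked genes was examined as a readout that the regions' calls did not use. Of 19622 genes tested in neuron RNA 393 were lower (2.0%) and 146 higher (0.744%) in cKO. Among the 218 genes with lower RNA and a start in a tested region, 103 lay in a region called shorter (47.2%). Their median H3K4me3 log2 difference was −0.31. Of the 10257 linked genes without an RNA call, 1943 lay in shorter regions (18.9%). Over all 12805 genes with such a start, tested in RNA or not, the share was 18.2%. Among the 57 linked genes with higher RNA (0.541%), 9 lay in shorter regions (15.8%), with a median of −0.05. Read the other way, RNA was lower for 103 of 2055 genes in shorter regions (5.01%), beside 2.07% of all 10532 linked genes. The median RNA log2 difference was −0.04 for genes in shorter regions and −0.01 over all linked genes, and it was below 0 for 1196 of 2055 and 5524 of 10532 genes. The RNA counts depended on the tool and on single libraries: edgeR called 539 genes and DESeq2 818, and edgeR called 207 without cKO replicate 1, 259 without cKO replicate 2, 268 without control replicate 3 and 311 without control replicate 2.

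The share with lower RNA was higher where the loss of covered length was large. Of 95 genes in regions shorter by at least 1 on the log2 scale, 24 had lower and 1 higher RNA (25.3% and 1.05%). Lrrc10b, a gene of the list of RNA changes, had 4186, 4277, 4349 and 4395 bp in controls and 1497, 1829, 1719 and 2000 bp in cKO (log2 difference −1.25, SE 0.09, adjusted p = 0.000159). Its RNA stood at 23.5, 20.4 and 16.9 CPM in controls and 3.68, 3.17 and 3.53 CPM in cKO (edgeR log2 difference −2.55, adjusted p = 3.33e-05). That list was chosen with earlier results of these data known, so the RNA of Lrrc10b is an example and not independent support. Neurod6 RNA stood at 134, 178 and 148 CPM in controls and 34.2, 31.9 and 30.9 CPM in cKO (−2.24, adjusted p = 2.96e-05). Nrgn RNA also fell (−0.43, adjusted p = 0.0421).

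A large loss of covered length also occurred without a called difference in RNA. Gria2 RNA had a mean of 2934 CPM in controls and 2709 CPM in cKO (log2 difference −0.12, edgeR adjusted p = 0.771). Npas4 (−0.34, adjusted p = 0.228), Grin1 (−0.31, adjusted p = 0.270) and Epha4 (−0.17, adjusted p = 0.417) were not called. Of the other genes on the list of RNA changes, Npr1, whose RNA fell (−2.87, adjusted p = 4.83e-05), and Wnt10b and C1qtnf6, whose RNA rose (1.09 each, adjusted p = 0.0186 and 0.00381), lay in regions with a peak in 8 of 8 libraries and no call (limma adjusted p = 0.917, 0.718 and 0.240). No peak covered the tabled starts of Npsr1 and Ogn, and 3 libraries had one at Sult5a1. Kctd4 and Trpa1 had no tabled start.

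Further genes with a large loss of covered length and lower RNA were picked after their values were seen. Sstr4, a somatostatin receptor, had 6853 bp in controls and 2824 bp in cKO (mean of 4 libraries each, log2 difference −1.26) and an RNA log2 difference of −1.97 (edgeR adjusted p = 0.000129). Htr1a, a serotonin receptor, had 4836 and 2261 bp (−1.07) and an RNA difference of −1.46 (adjusted p = 7.52e-05). Hpca, the calcium sensor hippocalcin, had 9342 and 4288 bp (−1.12) and an RNA difference of −0.45 (adjusted p = 0.0289). Zmynd8, a chromatin reader, had 7568 and 3342 bp (−1.20) and an RNA difference of −1.18 (adjusted p = 0.000367).

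The score columns, the authors' own values at peak summits, followed the loss of length in part. In regions of at least 4 kb the median fold enrichment over input was 50.6, 53.0, 52.6 and 48.8 in control libraries and 41.9, 51.1, 56.8 and 55.5 in cKO libraries. One cKO library was below and 2 were above all controls. Region by region, 204 of these 2075 regions had a lower fold enrichment in every cKO library than in every control and 24 a higher one, with 176 and 0 for the pileup and 189 and 1 for −log10 q. Over all 27163 regions with a peak everywhere, the medians were 18.2, 18.9, 18.5 and 17.9 in controls and 16.4, 20.1, 21.3 and 21.4 in cKO. Every cKO library was above every control in 1983 regions (7.30%) and below in 918 (3.38%), and replicate 1 of cKO set much of this, since without it 8310 regions were higher. For the pileup at the summit 779 regions were higher (2.87%) and 494 lower (1.82%), and for −log10 q 1273 (4.69%) and 609 (2.24%), with 1336 (4.92%) and 602 (2.22%) for −log10 p. With each library divided by its median, 1886 of 27163 regions had a lower pileup and 2205 a lower fold enrichment in every cKO library. Without that scaling the counts were 494 and 918. These counts therefore depended on how the libraries were scaled, and the scaled counts of higher regions are not given here.

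In regions called shorter the median fold enrichment was 49.2 ± 1.81 in controls and 49.6 ± 6.62 in cKO (SD over libraries, n = 4 each), with 356 of 2977 regions lower without overlap (11.96%) and 51 higher. In the 207 longer regions with peaks everywhere it was 5.51 ± 0.112 and 7.07 ± 0.319 (SD, n = 4 each). Single genes varied. The highest fold enrichment in the region averaged 36.8 in controls and 15.7 in cKO at Lrrc10b, 19.7 and 10.99 at Neurod6 and 58.5 and 41.6 at Gria2, but 53.8 and 50.6 at Npas4 and 49.1 and 50.4 at Nrgn.

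The other marks were described at the same regions, without a test because the regions had been chosen on H3K4me3. At the 4047 shorter regions H3K9ac covered 2438 ± 81.0 bp per region in controls (SD, n = 4) and 2012 ± 56.8 bp in cKO (SD, n = 3), or −17.5%, without overlap, beside −3.38% over all tested regions. H3K27ac covered 2296 ± 116 bp (SD, n = 3) and 2114 ± 76.0 bp (SD, n = 4), or −7.91%, beside −4.79%, and 3 of 4 cKO libraries were below all controls. H3K4me1 covered 2342 ± 64.3 bp and 2555 ± 125 bp (SD, n = 4 each), or 9.05%, beside 5.61%. At the control-only regions H3K9ac peaks were present in 67.4 ± 1.59% of regions in controls (SD, n = 4) and 48.9 ± 3.11% in cKO (SD, n = 3). Over all tested regions these shares were 72.2% and 75.6%, and at the cKO-only regions 22.7% and 36.6%. H3K27ac peaks were present at 61.8% of control-only regions in controls and 53.7% in cKO, beside 72.8% and 70.8% of all tested regions. H3K4me1 peaks were present at the control-only regions in 92.4 ± 1.001% and 84.9 ± 2.88% (SD, n = 4 each), beside 91.7% and 92.5% of all tested regions. At the 632 longer regions H3K9ac coverage was 139 ± 12.3 bp in controls (SD, n = 4) and 215 ± 20.7 bp in cKO (SD, n = 3).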

How the data were processed

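H3K4me3 was profiled in 8 libraries of sorted neuronal nuclei. The deposited files are 1 MACS peak list per library, with each peak's length, its pileup (a signal), its fold enrichment over input (a ratio), and −log10 p and −log10 q values. Per the file headers, the authors called H3K4me3 peaks with MACS 2.1.1.20160309 at a q cutoff of 0.1, and the other marks with MACS 2.1.0.20140616. The build is mm10 (GRCm38) per the submitters' processing notes; the aligner is not given in the sources used here. Neuron RNA was deposited by the authors as read counts per gene, 55.7 to 69.1 M per library.

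Peaks of chromosomes 1 to 19 were merged over libraries. Library measures were compared by two-sided exact permutation tests, whose smallest p is 0.0286. Covered length per region was compared with limma 3.58.1 on log2(length + 100 bp), and RNA with edgeR 4.0.16 (TMM, filterByExpr). Both were run on simulated data. The limma simulation changed only regions with a mean length over 1 kb and held no region with peaks in 1 genotype only. Regions were linked to gene starts and names of RefSeq GRCm38.p6 tables; a gene with several regions took the longest. Chromosome 18 regions are counted but not named singly. A few single regions that the naming rule selects are not reported here. Named regions were the 2 shorter and 2 longer with the smallest adjusted p per width class, the 3 largest present in 1 genotype only and the 3 widest, of which a part is printed; named genes were members of written lists in called regions, with values also for members and cell type markers that were not called. Members and lists were chosen with earlier results of these data known. Depth differences between peak lists are not corrected for, and absence of a called peak does not show absence of the mark. Alternatives were stricter or merged peaks, equal peak numbers, other offsets and classes, all chromosomes, a replicate block, 1 lane, and leaving out each library.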

Additional observations from a re-analysis of the deposited data

Results flagged for a closer look

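In groups of 4 libraries a single library was set apart where its gap to the next exceeded Dixon's critical value. This held for 7 of 194 groups examined, and chance flags about 1 in 20. Replicate 1 of cKO had 233 peaks of at least 4 kb against 434 to 471 in the other cKO libraries, and 2.35 peaks per region of at least 4 kb against 2.099 to 2.14. Its median −log10 q over regions with a peak everywhere was 51.7, against 75.5 to 79.4 in the other cKO libraries. Replicate 1 of control had 1.94 peaks per region of at least 4 kb against 1.71 to 1.74 in the other controls. At 3 named regions 1 library was longer than the rest of its group. These were 5307 bp in a control library within Prkag2 (chromosome 5 from 25055001), 560 bp in a control library within Lncpint (chromosome 6 from 31207202) and 2142 bp in a cKO library at Kdm1a.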

How the results depend on the processing

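Of the main values recomputed under the alternatives, 397 kept their direction and their side of the threshold or stayed within 1.5 times of a count, 42 moved, 6 passed the threshold that had not, 2 no longer passed and 1 reversed. With peaks of a −log10 q of at least 5, and with all libraries cut to an equal number of their strongest peaks, the log2 differences were −0.17 and −0.17 in covered length, −0.20 and −0.17 in mean width and −0.53 and −0.51 in 99th percentile width, each now past the threshold (exact permutation, adjusted p = 0.0381). At equal peak numbers covered length and mean width are the same measure and not separate results. The exact p of both widths was already the smallest possible in the main setting. Their adjusted p changed because covered length reached that p too. Under the same settings the difference in peaks per wide region was 0.18 and 0.33, no longer past it, and the second setting left 11 chromosomes fully separated. Covered length of regions under 500 bp went to −0.10 (p = 0.714, exact) when the class was set by cKO lengths. The peaks per wide region differed by 0.53 with replicates 1 to 3 only and by 0.34 to 0.53 with 1 library left out.

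Over regions, same-numbered libraries did not deviate together in any of the 4 pairs (r of −0.042 to 0.024), so the numbers were not taken to pair the libraries. Some library measures did run alike by number. Replicate 1 had the fewest peaks of at least 4 kb in both genotypes (1240 in control, 233 in cKO). It also had the most peaks per region of at least 4 kb (1.94 and 2.35). With 4 pairs, whether the numbers pair the libraries in such measures was not settled. For library measures, an exact sign-flip test over 4 numbered pairs cannot go below p = 0.125, the value for peaks of 2 kb to under 4 kb, fewer in cKO in 4 of 4 pairs. With the replicate block 2428 regions were called, 2066 shorter and 362 longer, and 327 genes in neuron RNA. A log2 difference of at least 0.5 left 2909 calls, 2362 of them shorter. Leaving out 1 library gave 488 to 1063 longer regions, the latter without cKO replicate 1. Control-only regions numbered 440 at the stricter q, 183 with peaks within 1 kb merged and 1194 with replicates 1 to 3, and cKO-only regions 169 at the stricter q, 660 with replicates 1 to 3 and 349 to 632 with 1 library left out. Division by library medians gave 1886 regions lower in pileup, 2205 in fold enrichment, 2081 in −log10 p and 2101 in −log10 q. With 1 library left out, lower and higher regions were 560 to 765 and 862 to 10097 for pileup, 1057 to 1390 and 2247 to 8310 for fold enrichment, 710 to 982 and 1490 to 10068 for −log10 p, and 713 to 1000 and 1417 to 10111 for −log10 q. DESeq2 called 818 genes in neuron RNA, and leaving out 1 library 207 to 482. Beyond what these settings construct, the cause was not tested. Peak lists carry no reads per region, so depth limits which weak edges were called and counting errors cannot be given.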
